A study of Mus musculus with 10 samples.

Results

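The genes described here are 42 genes whose transcripts mark dividing cells, chosen by symbol from the 55414 genes in the deposited expression table. All 42 were found there, and all 42 were among the 20000 genes of highest mean level that were tested. By role, 24 act in mitosis and 18 act at the start of DNA replication or during S phase. The question put to them was whether the proliferative state differed between Camk2d-KO and Camk2d-intact cells, or between clones of either kind.

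The 10 RNA-seq samples were of mpkCCD cells, an immortalized line from the cortical collecting duct of the mouse kidney with a C57BL/6 background that makes the vasopressin-regulated water channel aquaporin-2. All samples were grown as epithelia on filters under 0.1 nM dDAVP, an agonist of the vasopressin V2 receptor, for 7 days, first in complete and then in simple medium. Of the 5 intact samples, 1 was the parental line and the other 4 were pairs from 2 intact clones (intact 1_1 and 1_2, intact 2_1 and 2_2), and the intact clones were transfected like the KO clones and still make CAMK2D. The 5 KO samples (KO 1 to KO 5) were 1 sample each of 5 single-cell-derived clones in which CRISPR-Cas9 had mutated Camk2d, the delta isoform of calcium/calmodulin-dependent kinase II. KO 1 and KO 2 were made with one guide RNA, and KO 3, KO 4 and KO 5 with another that targets a different exon, as inferred from the exon the supplement lists for each clone, since the sample labels do not say. The labels do not say whether the paired samples of an intact clone were separate cultures. The p-values among cell lines and between the intact clones measure the spread within these pairs, which may be technical. Those for KO against intact measure the spread among the 5 samples of each group.

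Proliferating cells express these genes in waves. The S-phase group, which loads and fires replication origins and makes nucleotides, is switched on at the G1/S border by E2F factors. The mitotic group is held down in resting and G1 cells by the DREAM complex through a promoter element called the cell-cycle genes homology region (CHR), and it rises in G2 and M, often with NF-Y bound at nearby CCAAT boxes. In a bulk sample, fewer cycling cells and less RNA per cycling cell cannot be told apart.

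Promoter windows were searched for these elements, which are the part of the sequence that bears on the 2 groups of genes. Windows from RefSeq (GRCm38.p6) of 250 bases before and 50 bases after each annotated start were searched on both strands. The CHR was searched as TTTGAA or TTCGAA, the E2F element as TTTCCCGC, TTTGGCGC, TTTCGCGC or TTTGCCGC, and the CCAAT box as CCAAT. Overlapping matches on the 2 strands were possible for the E2F element, and the letters searched for one element did not contain those of another. Of the 42 genes, 35 had a window (37 windows in all). Ccna2, Aurkb, Kif20a, Tpx2, Mcm4, Gins2 and Ccne2 had none in the table used.

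A CHR match lay in 15 of 20 windows of mitotic genes (75.0%) and in 3 of 17 windows of S-phase genes (17.6%), against 19.2% of the 32851 windows of all genes. An E2F match lay in 1 mitotic window (5.0%) and in 7 S-phase windows (41.2%), against 2.27% of all windows. CCAAT was held by 85.0% of the mitotic, 70.6% of the S-phase and 37.4% of all windows, and CHR and CCAAT together by 75.0%, 17.6% and 7.53%. A match describes these letters only, and no binding was measured.

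**Figure D1:**
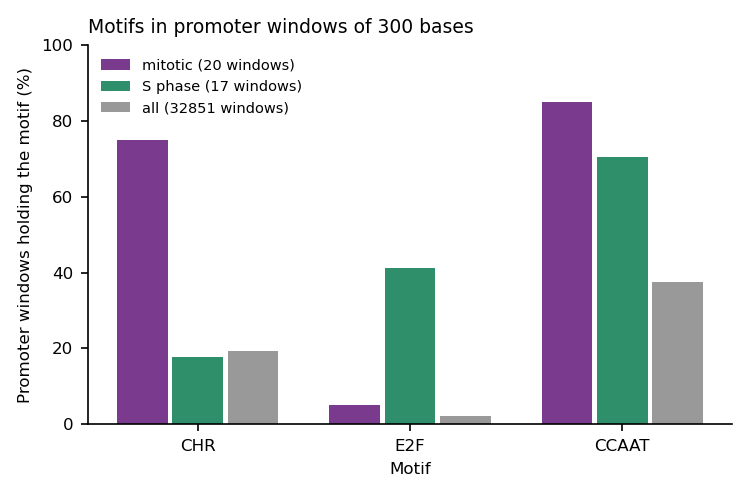
Share of promoter windows (%, vertical axis) that hold a CHR, E2F or CCAAT match (horizontal axis), for 20 windows of mitotic genes, 17 windows of S-phase genes and all 32851 windows. CHR matches were in 75.0% of the mitotic windows and E2F matches in 41.2% of the S-phase windows, against 19.2% and 2.27% of all windows.

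The 4 mitotic promoters below were picked among the genes described in every sample to show CHR matches. Birc5, also among the genes of smallest p, had no match to any of the 3 elements in its window. Each is the run of 250 bases before the start, 5′ to 3′ on the strand of the gene, with CHR matches on either strand in capitals.

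Cdk1 (chr10:69352913-69353162, strand -): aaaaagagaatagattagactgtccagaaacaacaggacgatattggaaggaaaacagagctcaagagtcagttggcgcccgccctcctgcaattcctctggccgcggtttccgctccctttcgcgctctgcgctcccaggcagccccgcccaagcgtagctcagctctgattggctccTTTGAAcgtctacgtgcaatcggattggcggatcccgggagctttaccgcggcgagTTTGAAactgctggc
Ccnb2 (chr9:70421555-70421804, strand -): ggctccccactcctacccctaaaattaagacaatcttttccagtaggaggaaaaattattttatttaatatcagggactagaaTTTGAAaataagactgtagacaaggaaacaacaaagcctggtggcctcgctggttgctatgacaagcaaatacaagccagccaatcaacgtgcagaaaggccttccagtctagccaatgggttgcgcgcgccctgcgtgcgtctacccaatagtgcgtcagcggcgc
Cdc20 (chr4:118437344-118437593, strand -): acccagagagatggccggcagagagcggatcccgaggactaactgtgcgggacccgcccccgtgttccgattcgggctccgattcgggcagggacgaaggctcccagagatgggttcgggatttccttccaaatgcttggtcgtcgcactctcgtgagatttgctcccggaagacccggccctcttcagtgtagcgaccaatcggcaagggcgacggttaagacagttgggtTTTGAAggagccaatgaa
Mki67 (chr7:135716380-135716629, strand -): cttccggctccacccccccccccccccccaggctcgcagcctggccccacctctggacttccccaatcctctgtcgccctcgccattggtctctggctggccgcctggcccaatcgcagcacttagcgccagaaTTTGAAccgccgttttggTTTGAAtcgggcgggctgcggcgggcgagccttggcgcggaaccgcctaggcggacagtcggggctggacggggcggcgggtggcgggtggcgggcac

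Cdk1 and Mki67 each had 2 CHR matches, the nearer one starting 15 and 98 bases before the transcript start. Ccnb2 and Cdc20 each had 1, at 167 and 18 bases before it. The promoters of Mcm5 and Mcm6 are shown for the S-phase group, with E2F matches in capitals.

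Mcm5 (chr8:75109259-75109508, strand +): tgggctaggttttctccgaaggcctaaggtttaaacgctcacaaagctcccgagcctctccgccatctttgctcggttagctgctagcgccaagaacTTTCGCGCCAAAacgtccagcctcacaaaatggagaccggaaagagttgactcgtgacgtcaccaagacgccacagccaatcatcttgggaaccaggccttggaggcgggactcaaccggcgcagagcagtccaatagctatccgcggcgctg
Mcm6 (chr1:128359706-128359955, strand -): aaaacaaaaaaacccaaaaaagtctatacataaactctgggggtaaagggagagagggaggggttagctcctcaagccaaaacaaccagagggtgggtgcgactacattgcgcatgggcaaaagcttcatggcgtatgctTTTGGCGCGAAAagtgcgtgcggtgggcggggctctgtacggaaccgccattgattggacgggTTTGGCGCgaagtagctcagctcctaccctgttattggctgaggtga

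In Mcm5 a pair of matches on opposite strands overlap, and Mcm6 holds a similar overlapping pair and a single match that starts 47 bases before the transcript start.

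The mitotic genes had mean levels over the 10 samples from 14.2 TPM (Ttk) to 492 TPM (Cdk1), with a median of 94.0 TPM. The S-phase genes ranged from 24.8 TPM (Ccne1) to 650.1 TPM (Mcm6), with a median of 254 TPM. TPM is a share of all transcripts in a library, scaled to transcript length, so levels can be compared between genes. Together the 42 genes held 0.676% (KO 1) to 0.948% (KO 2) of all TPM, and 0.7095% to 0.832% in the other 8 samples.

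The samples themselves were checked once. Camk2d was 123 to 141 TPM in the intact and 19.8 to 29.8 TPM in the KO samples (log2(KO/intact) -2.39, limma adjusted p = 1.20e-06). KO 1 and KO 2 were the least alike pair of samples across all genes (Pearson's r = 0.980, against 0.991 for the most alike pair). All 6 epithelial markers reached 1 TPM, as did 10 of 12 principal cell markers, 2 of 8 intercalated cell, 1 of 6 leukocyte, 0 of 7 fibroblast and 0 of 6 endothelial markers. The summed principal cell markers were 5144 to 7132 TPM in intact samples and 2512 to 5369 TPM in KO samples, with KO 2 (2512 TPM) and KO 1 (2668 TPM) lowest. Aqp2 carried most of that sum, at 1281 TPM in KO 1, 1618 TPM in KO 2 and 2856 TPM or more in the other samples. The other 11 markers summed to 1370 to 1629 TPM in intact samples, 1387 TPM in KO 1 and 894 TPM in KO 2, and not all were low there, with Scnn1a highest in KO 1 (260 TPM) and Hsd11b2 highest in KO 2 (115 TPM). These 2 clones are also the ones made with the same guide, so guide and clone cannot be told apart in them. Because they stand apart, several results, though not all, are also given without 1 or both of them.

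Cdk1, the kinase that drives entry into mitosis, led the mitotic cyclins and CDK. It was 473 TPM in the parental line, 560.5 and 507 TPM in intact clone 1, 439.7 and 429 TPM in intact clone 2, and 451, 599, 486, 473 and 498 TPM in KO 1 to KO 5. KO 2 was highest and intact clone 2 lowest, with the other KO clones inside the intact range. Ccnb2, a B-type cyclin that activates Cdk1, was 88.7 TPM in the parental line, 112 and 109 TPM in clone 1, 85.8 and 82.2 TPM in clone 2, and 89.2, 203, 87.2, 86.7 and 94.1 TPM in KO 1 to KO 5. KO 2 alone lay above the intact range, at 119% above the mean of the other 9 samples. Ccna2, the cyclin A of S phase and G2, was 153 TPM in the parental line, 195 and 185 TPM in clone 1, 149 and 140.0 TPM in clone 2, and 137, 161, 148, 156 and 161 TPM in KO 1 to KO 5. For Ccna2 clone 1 was highest and KO 2 lay only 2.12% above the mean of the others. Ccnb1, the other B-type cyclin, had its lowest value in intact 2_2 (67.1 TPM) and its highest in KO 2 (100.3 TPM).

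Of the 6 mitotic and checkpoint kinases other than Cdk1, Aurkb, the kinase of the chromosomal passenger complex, was the most abundant. It was 115 TPM in the parental line, 144 and 142 TPM in clone 1, 105.8 and 97.1 TPM in clone 2, and 117, 155, 111, 114 and 116 TPM in KO 1 to KO 5. KO 2 and clone 1 were high, clone 2 was low, and the remaining KO clones sat beside the parental line. Plk1, Bub1b and Ttk, a kinase of mitotic entry and a pair of spindle checkpoint proteins, were 46.7%, 40.2% and 70.4% higher in KO 2 than the mean of the other samples. For Aurka and Bub1 that excess was 13.9% and 15.7%, and Bub1 was highest in intact 1_1.

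Ube2c and Cdc20, the ubiquitin-conjugating enzyme and an activator of the anaphase-promoting complex, were the leading anaphase genes. Ube2c was 334 TPM in the parental line, 436 and 407 TPM in clone 1, 336 and 344 TPM in clone 2, and 341, 424, 349, 359 and 386 TPM in KO 1 to KO 5. Cdc20 was 165 TPM in the parental line, 211 and 207 TPM in clone 1, 159 and 157 TPM in clone 2, and 163, 232, 173, 175 and 184 TPM in KO 1 to KO 5. Both were high in clone 1 and KO 2, and in neither did KO and intact samples separate. Pttg1, the securin that restrains separase, went from 92.1 to 111 TPM over all samples, and KO 2 (98.8 TPM) was not among its high samples.

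Birc5, survivin of the passenger complex, was 190.3 TPM in the parental line, 247 and 241 TPM in clone 1, 187 and 189 TPM in clone 2, and 199.7, 246, 188, 192 and 216 TPM in KO 1 to KO 5. Its 3 high samples were the pair of clone 1 and KO 2. Cenpa, the centromeric histone, and Cenpf, a kinetochore protein, were 42.3% and 43.4% higher in KO 2 than the mean of the others. Cenpe, a kinetochore motor, was the exception in this group, with KO 2 at -9.58% relative to the mean of the others and clone 1 highest at 27.6 and 28.1 TPM.

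Kif23, a motor of the central spindle, was 143 TPM in the parental line, 182 and 156 TPM in clone 1, 139.9 and 122 TPM in clone 2, and 146, 219.6, 129, 144 and 148 TPM in KO 1 to KO 5. KO 2 was the one sample above all intact samples. The other spindle genes, the motors Kif11 and Kif20a and the spindle assembly factors Tpx2 and Nusap1, were 15.1% to 46.1% higher in KO 2 than the mean of the others. Tpx2 and Nusap1 were highest in clone 1, and Nusap1 was lowest in KO 1 (38.2 TPM).

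Mki67, which encodes the proliferation antigen Ki-67 on mitotic chromosomes, was 21.5 TPM in the parental line, 25.6 and 26.1 TPM in clone 1, 17.8 and 18.2 TPM in clone 2, and 21.1, 35.2, 20.2, 21.9 and 20.6 TPM in KO 1 to KO 5. Top2a, the topoisomerase that untangles sister chromatids, was 138 TPM in the parental line, 165 and 165 TPM in clone 1, 121 and 112 TPM in clone 2, and 119.7, 176, 129, 138 and 135 TPM in KO 1 to KO 5. In both genes the order was KO 2, clone 1, the parental line with KO 4 beside it, and clone 2 lowest, except that KO 1 lay between the 2 clone 2 samples in Top2a.

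**Figure D2:**
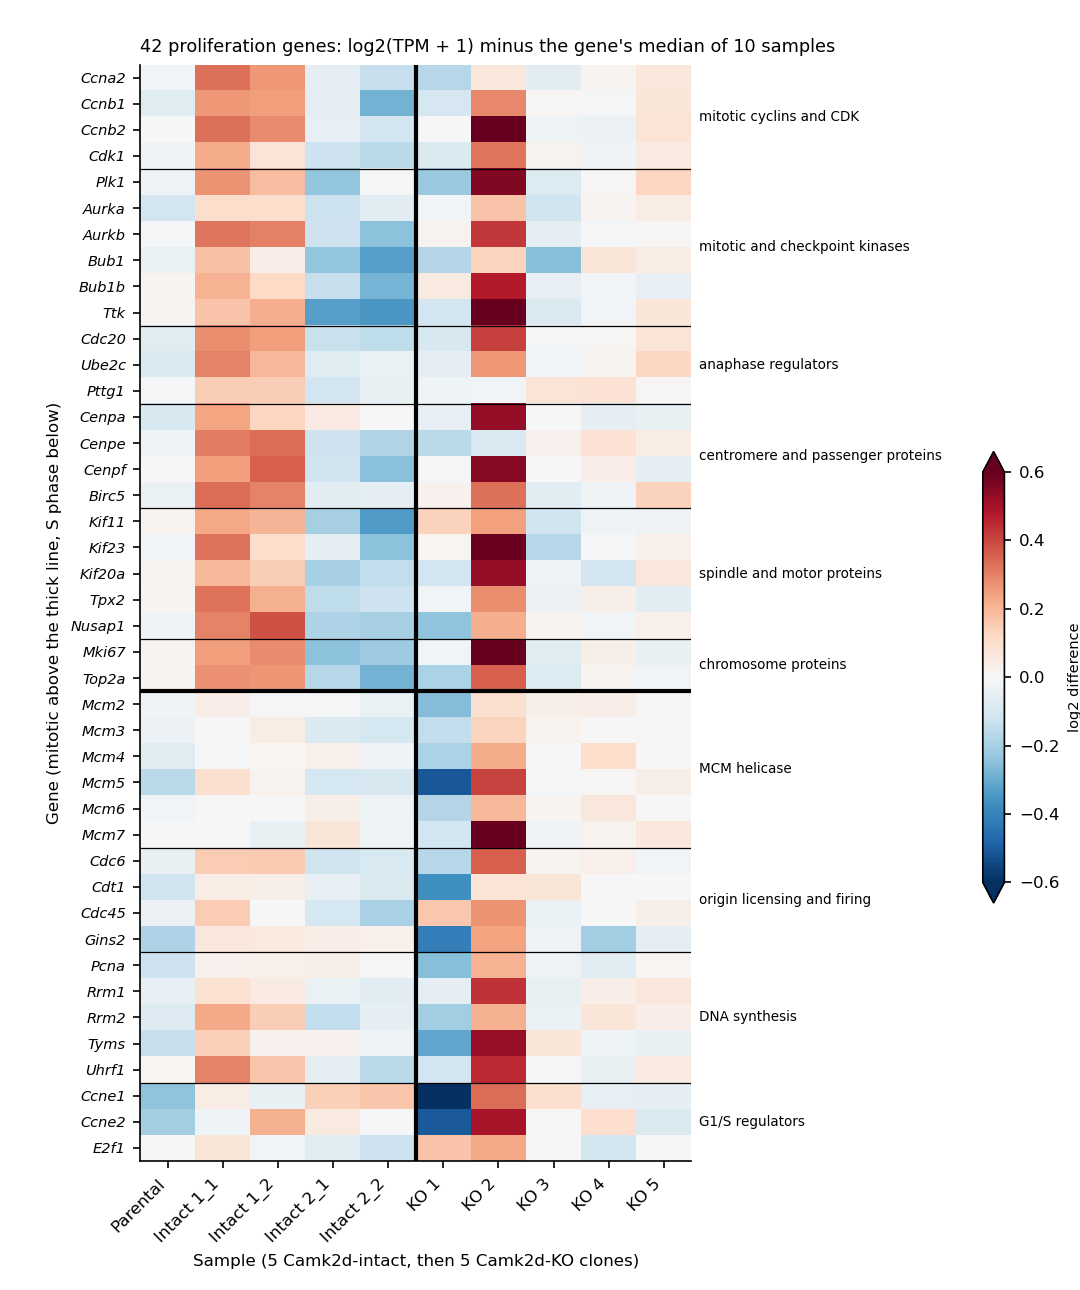
Heat map of 42 genes (rows, by role, mitotic above the thick line) in 10 samples (columns), coloured by log2(TPM + 1) minus the median of that gene over the 10 samples. Colours end at 0.6 in either direction. KO 2 was red across most rows, the pair of intact clone 1 samples was red mainly in the mitotic rows, intact clone 2 was blue in those rows and KO 1 was blue mainly in the S-phase rows.

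Mcm6, a subunit of the MCM helicase that unwinds DNA at the fork, was the most abundant of the 42 genes. It was 638 TPM in the parental line, 643 and 647 TPM in clone 1, 661 and 631 TPM in clone 2, and 570.1, 742, 652, 675 and 643 TPM in KO 1 to KO 5. Mcm7, another subunit, was 376 TPM in the parental line, 378 and 365 TPM in clone 1, 396 and 371 TPM in clone 2, and 348, 599.8, 372, 382 and 394 TPM in KO 1 to KO 5. In both subunits the intact samples lay close together, KO 2 lay above and KO 1 below all of them. All 6 subunits (Mcm2 to Mcm7) were highest in KO 2 and lowest in KO 1, with KO 2 8.57% (Mcm2) to 59.5% (Mcm7) above the mean of the other samples.

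The genes that license and fire origins did not all follow that order. Gins2, a subunit of the GINS complex that joins the helicase, was 157 TPM in the parental line, 187 and 186 TPM in clone 1, 184 and 182 TPM in clone 2, and 134, 211, 175, 155 and 172 TPM in KO 1 to KO 5. Both intact clones lay within 182 to 187 TPM, KO 2 above them and KO 1 furthest below. Only 34.6% of the 50-base windows of Gins2 transcripts are in no other gene, since Gse1 overlaps it on the opposite strand and these libraries do not mark strand, so its level is uncertain. The next lowest shares were 74.8% in Kif20a, 76.6% in Ccnb1 and 76.7% in Mcm7. Genes on the opposite strand overlap Kif20a (Cdc23) and Mcm7 (Ap4m1 and Cops6), so part of their reads may be shared too. Cdc45, which loads with GINS, was 98.0 TPM in the parental line, 111 and 100.1 TPM in clone 1, 93.1 and 87.5 TPM in clone 2, and 112, 121, 97.5, 101 and 103 TPM in KO 1 to KO 5. Here KO 1 and KO 2 were the 2 highest samples. Cdc6 and Cdt1, the loaders of the helicase, were lowest in KO 1, at 83.8 and 129 TPM.

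Among the genes of DNA synthesis, Tyms, thymidylate synthase, was 293 TPM in the parental line, 357 and 329 TPM in clone 1, 329 and 316 TPM in clone 2, and 260.2, 465, 340.1, 317 and 314 TPM in KO 1 to KO 5. Rrm1, the large subunit of ribonucleotide reductase, was 222 TPM in the parental line, 244 and 237 TPM in clone 1, 223 and 219 TPM in clone 2, and 220.4, 309.99, 222, 236 and 241 TPM in KO 1 to KO 5. KO 2 lay above all other samples in both genes, and KO 1 below all in Tyms only. Pcna, the sliding clamp, and Uhrf1, which maintains DNA methylation, were 18.9% and 34.5% higher in KO 2 than the mean of the others. Rrm2, the small subunit, was highest in intact 1_1 (311 TPM) with KO 2 close to it (308 TPM), which made it the one S-phase gene in which KO 2 was not the highest.

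E2f1, an activator E2F and itself a target of E2F factors, was 67.4 TPM in the parental line, 70.8 and 66.6 TPM in clone 1, 64.04 and 61.7 TPM in clone 2, and 76.0, 79.2, 67.5, 62.3 and 67.3 TPM in KO 1 to KO 5. KO 1 and KO 2 were both above all intact samples. The E-type cyclins of the G1/S border parted from E2f1 in KO 1: relative to the mean of the other samples, Ccne1 was at -42.1% and Ccne2 at -33.7% there, while E2f1 was at 12.6%. In KO 2 all 3 were the highest of the 10 samples.

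**Figure D3:**
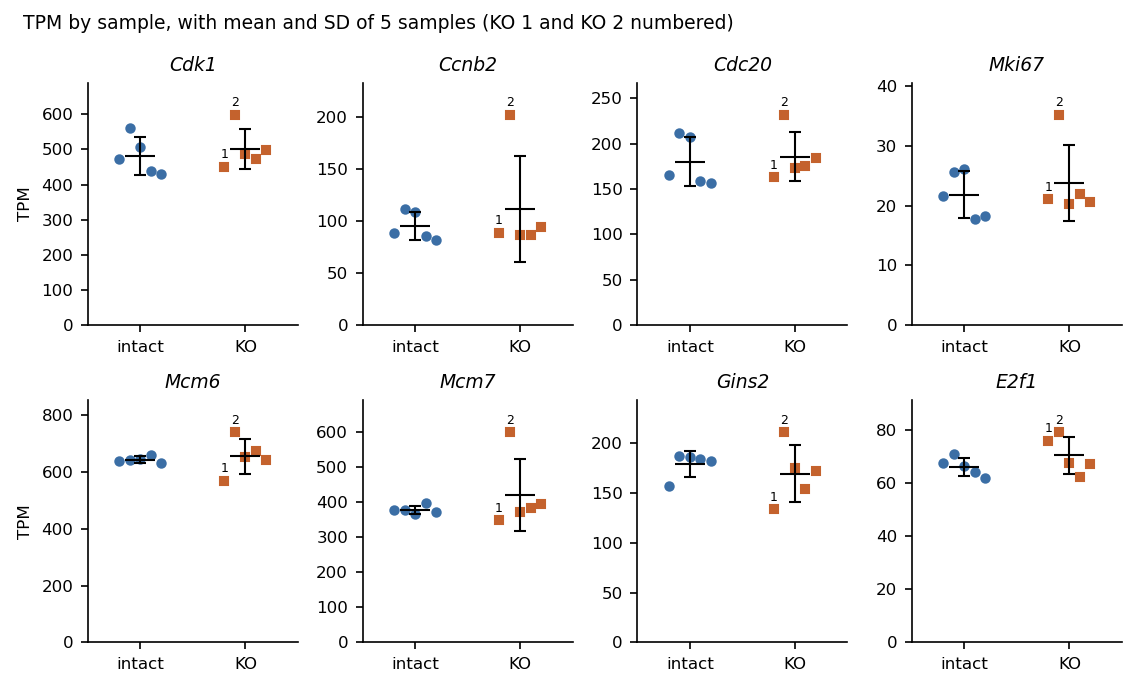
TPM of 8 genes (vertical axes, from 0) in 5 intact samples (circles) and 5 KO clones (squares), with the mean and SD of each group as black bars and KO 1 and KO 2 numbered. The groups overlap in every panel, and the wide KO bars of Ccnb2 and Mcm7 follow from KO 2 at 203 and 599.8 TPM.

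No difference between KO and intact cells passed the test in any of the 42 genes. With limma on log2(TPM + 1), 0 of 42 had an adjusted p under 0.05, where 0.005% of all genes tested (1 gene, Camk2d) did. The unadjusted p was under 0.05 in 0 of 42, against 6.99% of all genes tested. With edgeR on expected counts and its own cut-off, the paper called more transcripts than Camk2d, among them gasdermin genes. The count of 1 gene is therefore that of the test used here. In 0 of 42 were the KO and intact samples free of overlap, against 1.64% of all genes. The log2(KO/intact) of the 42 genes lay between -0.09 (Gins2) and 0.16 (Ttk), with a median of 0.03, and the median over all genes was 0.02. It was above 0 in 29 of 42 genes (69%), against 57.3% of all genes tested and 62% of those at least as abundant as the lowest of the 42, whose median was 0.03.

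The 5 genes nearest to a difference were Cdc45, E2f1, Rrm1, Ccna2 and Mcm7. Cdc45 was 98.0 ± 8.94 TPM (SD, n = 5) in intact and 107 ± 9.69 TPM (SD, n = 5) in KO cells. Its log2(KO/intact) was 0.12 (SE 0.08, 95% confidence interval -0.04 to 0.29, limma adjusted p = 0.769). E2f1 had a log2(KO/intact) of 0.09 (interval -0.06 to 0.24, limma adjusted p = 0.820) and Rrm1 one of 0.09 (interval -0.10 to 0.28, limma adjusted p = 0.826). For Ccna2 it was -0.09 (interval -0.30 to 0.11, limma adjusted p = 0.837) and for Mcm7 0.12 (interval -0.16 to 0.40, limma adjusted p = 0.841). The exact permutation test over samples (two-sided, smallest possible p = 0.00794) gave 0.151 for Cdc45, 0.246 for E2f1, 0.492 for Rrm1, 0.397 for Ccna2 and 0.619 for Mcm7.

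Without KO 2 the log2(KO/intact) of Rrm1 was 0.0049, that of Cdc45 0.08 and that of E2f1 0.04, and E2f1 was at -0.0081 without KO 1 and KO 2. That of Ccna2 was -0.11 without KO 2 and -0.03 without intact 1_1.

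The intervals give the precision of these ratios, but they and the permutation test count the paired samples of an intact clone as independent. Samples of 1 line resembled each other (consensus correlation 0.603 over all genes), so the intervals are too narrow. Those of the MCM genes other than Mcm5 and Mcm7 ended at log2 ratios between -0.15 and 0.19, while those of Ccnb2 ran from -0.34 to 0.64 and those of Mki67 from -0.26 to 0.47. Without KO 2, the median log2(KO/intact) turned from 0.03 to -0.042 in the S-phase genes and from 0.04 to -0.05 in the mitotic genes, whose median was also below 0 without intact 2_2 (-0.017), and without KO 2 the ratio of Mcm7 was -0.014. Over 21 alternative settings and left-out samples, the lowest adjusted p of any of the 42 genes was 0.666 to 0.9997.

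**Figure D4:**
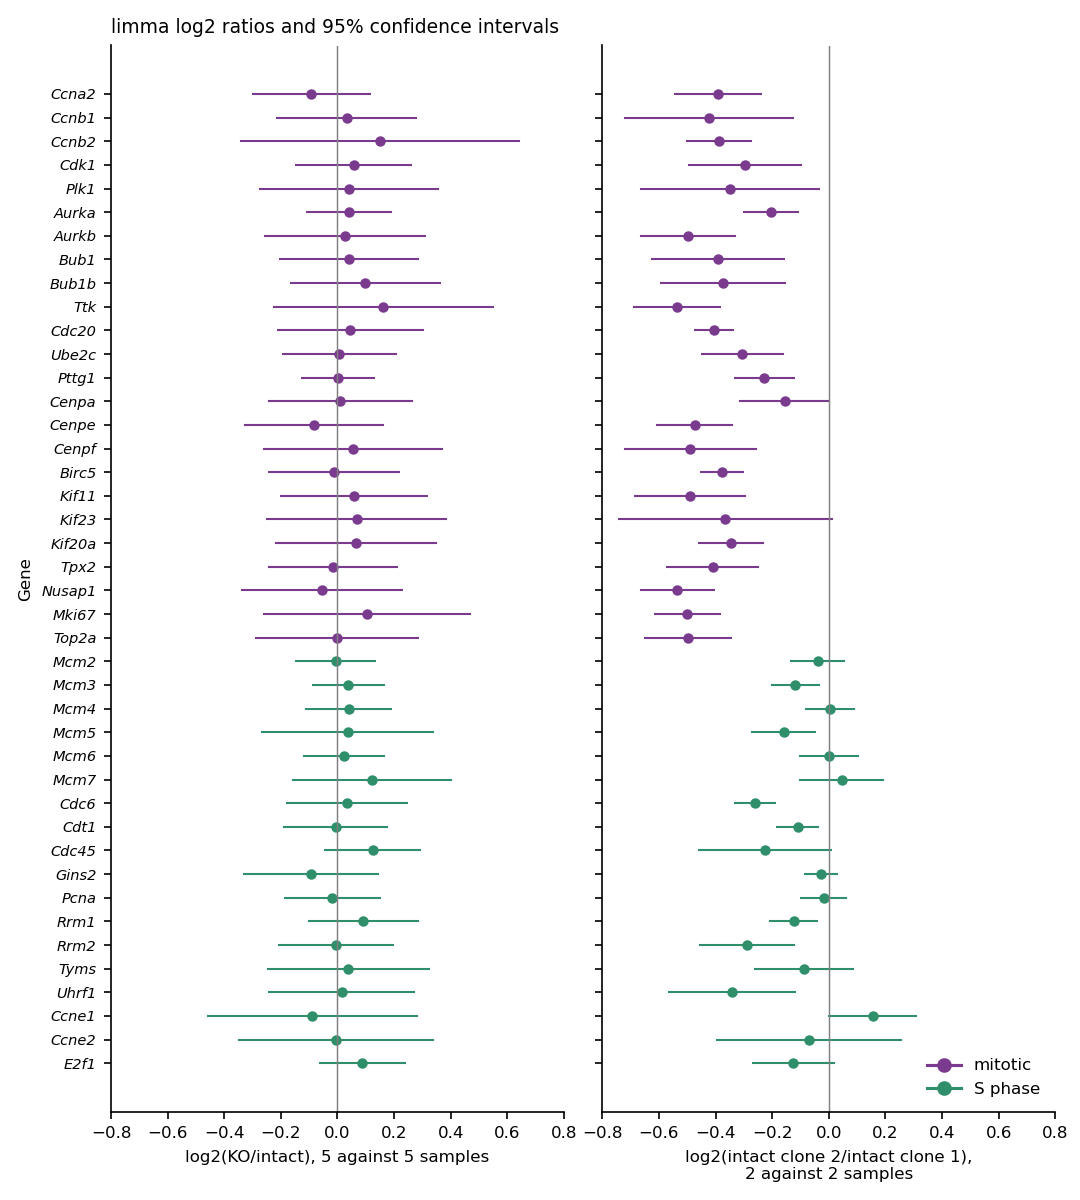
limma log2 ratios (points) with 95% confidence intervals (lines) of 42 genes, for KO against intact samples (left, 5 against 5) and for intact clone 2 against intact clone 1 (right, 2 against 2). On the left every interval holds 0, and on the right all 24 mitotic genes have a ratio below 0, with intervals that end below 0 in 22.

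A mean over each group of genes gives the level of each sample. Relative to the median of the 10 samples, the mean log2(TPM + 1) of the mitotic genes was 0.39 in KO 2, 0.27 and 0.22 in intact clone 1, and -0.13 and -0.17 in intact clone 2. It was -0.01 in the parental line and -0.06, -0.04, 0.01 and 0.04 in KO 1, KO 3, KO 4 and KO 5. For the S-phase genes it was 0.31 in KO 2 and -0.23 in KO 1, while the other 8 samples lay between -0.09 (parental) and 0.08 (intact 1_1). Samples of both groups lay away from the middle, and KO 3, KO 4 and KO 5 stayed within -0.04 and 0.04 in both means.

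**Figure D5:**
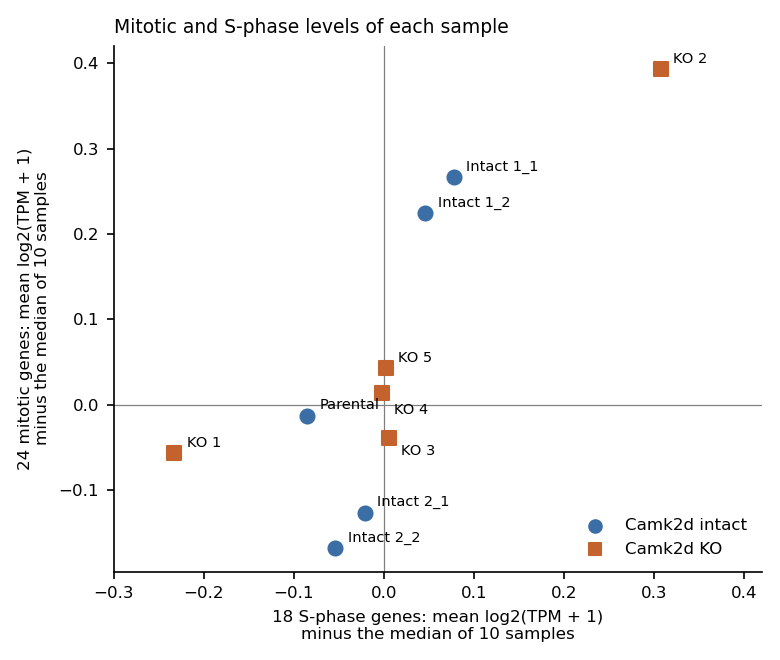
Mean log2(TPM + 1) of the 24 mitotic genes (vertical axis) and the 18 S-phase genes (horizontal axis), each minus its median over 10 samples, for intact samples (circles) and KO clones (squares). KO 2 is at the top right (0.39 and 0.31), KO 1 is lowest on the horizontal axis (-0.23), and the pairs of intact clone 1 and intact clone 2 are parted on the vertical axis.

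KO 2 was the highest of the 10 samples in 33 of 42 genes, against 24.8% of all genes tested and 31.5% of those whose mean TPM was at least that of the lowest of the 42. It was above the other 4 KO clones in 40 of 42, against 31.4% of all genes tested. The exceptions to the latter were Pttg1 and Cenpe. It was highest in 17 of 18 S-phase and in 16 of 24 mitotic genes, and its median excess over the mean of the others was 22.5% in the S-phase and 27.0% in the mitotic genes. KO 1 was the lowest sample in 14 of 18 S-phase genes and in 2 of 24 mitotic genes, together 16 of 42 against 12.5% of all genes tested and 16.4% of those at least as abundant as the lowest of the 42. Its median difference from the mean of the other samples was -15.6% in the S-phase and -9.32% in the mitotic genes. These are counts in single samples with no test, Aqp2 was lowest in the same 2 clones, and the part of cell state in these levels was not tested.

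The 8 cell lines were compared by a moderated F test in limma, whose residual spread came from the 2 pairs of intact samples. It passed for 3 of 42 genes at an adjusted p under 0.05, against 3.6% of all genes tested. The count was 10 with all genes above 0 (13.2% of all genes in that fit), 11 with genes of a mean TPM of at least 1 (7.65%), 11 with robust moderation (6% of all genes) and 0 without a trend (2.26%). The 3 genes were Ccnb2 (F = 146, limma adjusted p = 0.0364), Gins2 (F = 137, limma adjusted p = 0.0380), whose level is uncertain because of shared reads, and Cdc20 (F = 106.2, limma adjusted p = 0.0444). Mki67 (F = 73.2, limma adjusted p = 0.0529) and Birc5 (F = 66.9, limma adjusted p = 0.0549) came next. The unadjusted p was under 0.05 in 33 of 42 genes, in 18 of 24 mitotic and 15 of 18 S-phase genes, against 28.7% of all genes tested and 40.8% of those at least as abundant as the lowest of the 42.

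None of these calls held in every fit that left out 1 sample, and all rested on the 2 degrees of freedom of the pairs. The lowest F in such fits was 23.8 for Ccnb2, 79.9 for Gins2 and 72.5 for Cdc20. Without KO 2 the adjusted p was 0.134 for Ccnb2, 0.0541 for Gins2 and 0.0700 for Cdc20, and Gins2 was at 0.0555 without KO 1. Without both KO 1 and KO 2, 0 of 42 genes passed at an adjusted p under 0.05 (271 of all genes tested, 1.35%, did), and 21 had an unadjusted p under 0.05, against 18.3% of all genes. Without any 1 of the 4 paired intact samples 0 of 42 genes, and 0 of all genes tested, passed at an adjusted p under 0.05, and 19 to 36 of the 42 had an unadjusted p under 0.05 over all 10 fits that left out 1 sample, against 22.4% to 29.7% of all genes.

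The 2 intact clones differed from each other in the mitotic genes at an unadjusted p, and whether any gene passed after adjustment depended on the settings. In all 24 mitotic genes both samples of clone 2 were below both samples of clone 1, and the same held in 10 of 18 S-phase genes, against 25% of all genes tested and 34.3% of those at least as abundant as the lowest of the 42. Clone 1 was 11.6% (Cenpa) to 49.4% (Ttk) higher than clone 2 in the mitotic genes, with a median of 32.1%. In the S-phase genes the same difference was -10.5% (Ccne1) to 27.1% (Uhrf1), with a median of 7.08%. The median log2(clone 2/clone 1) was -0.39 in the mitotic, -0.10 in the S-phase and -0.01 in all genes tested.

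Of the 42 genes, 0 had an adjusted p under 0.05, against 0.025% of all genes tested (5 genes). When genes with a mean TPM under 1 were left out 7 of the 42 passed (1.86% of all genes in that fit), and with robust moderation 4 did (0.955%). At an unadjusted p under 0.05, 29 of 42 were lower in clone 2, against 9.19% of all genes tested (14.5% of those at least as abundant as the lowest of the 42), and 1 of 42, Ccne1, was higher, against 7.93%. The mitotic genes gave 22 of these lower calls, and Cenpa and Kif23 were the 2 that missed. Cdc20 had the smallest p, with a log2(clone 2/clone 1) of -0.41 (SE 0.02, interval -0.47 to -0.34, limma adjusted p = 0.0893). Birc5 followed at -0.38 (SE 0.02, limma adjusted p = 0.0927) and Mki67 at -0.50 (SE 0.04, limma adjusted p = 0.0945). With a spread pooled with that among KO clones, 17 of 42 had an unadjusted p under 0.05, against 6.57% of all genes in that fit. The log2 ratios of the 6 MCM genes in the same comparison ran from -0.16 (Mcm5) to 0.05 (Mcm7).

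The paired samples of a clone were close in these genes. The median SD of log2(TPM + 1) between the 2 samples of an intact clone was 0.048 over the 42 genes, 0.08 over all genes tested and 0.058 over those at least as abundant as the lowest of the 42. Over the 8 cell lines the median SD was 0.17 for the 42 genes, 0.15 for all genes tested and 0.13 for those at least as abundant. Over the 8 lines the median Pearson's r between mitotic genes was 0.83 (276 pairs), between S-phase genes 0.81 (153 pairs) and between the 2 groups 0.66 (432 pairs). Without KO 2 these medians were 0.81, 0.71 and 0.39, and without KO 1 and KO 2 they were 0.86, 0.36 and 0.45. The points share their libraries, and 6 to 8 lines are few, so these are descriptions. No such r was computed for other genes, so co-variation particular to the 42 genes is not shown. Within the mitotic group the co-variation was as high without the 2 outlying KO clones, and within the S-phase group it was lower. Of the 6 lines left, the 2 intact clones lay furthest from the middle in the mitotic mean (0.27 and 0.22, -0.13 and -0.17). The r without these intact clones was not computed, so it is not separate from the difference between them.

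Longer lists of cell-cycle genes were compared between KO and intact cells in the same fit, and 0 genes of these lists had an adjusted p under 0.05. Of 86 other mitotic genes, 1 had an unadjusted p under 0.05, against 6.99% of all genes. It was Smc4, a condensin subunit, at 350.2, 359, 417, 341 and 325 TPM in intact and 277, 269.6, 341, 322 and 340.1 TPM in KO samples (log2(KO/intact) -0.21, limma adjusted p = 0.683). The 2 lowest samples were KO 1 and KO 2, the groups overlapped, and without these clones the log2 ratio was -0.10 (limma adjusted p = 0.764). Of 80 other S-phase genes, 5 did, 4 of them (5%) higher in KO, near the 4.52% of all genes tested that were called in that direction. Timeless, a fork protection protein, was 179.9 to 189 TPM in intact and 195 to 221 TPM in KO samples, without overlap (log2(KO/intact) 0.15, limma adjusted p = 0.524). Haus6, a subunit of the spindle augmin complex held in that list, differed by 0.20 on the log2 scale (limma adjusted p = 0.659), Cdca7l by 0.14 (limma adjusted p = 0.662) and Wdr76 by -0.26 (limma adjusted p = 0.668). The 4 highest samples of Cdca7l were KO clones, its groups overlapped through KO 3 (202.5 TPM), and without KO 2 it differed by 0.10. Without KO 1 and KO 2 the other mitotic genes had 0 and the other S-phase genes 5 calls at an unadjusted p under 0.05, of which 3 were lower in KO, against 8.48% of all genes called and 3.1% called lower in that fit.

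Upstream of replication, 0 of 11 G1 cyclins, CDKs and growth drivers and 0 of 23 brakes of the cycle, which include CDK inhibitors and DREAM subunits, had an unadjusted p under 0.05 between KO and intact cells (2 and 0 without KO 1 and KO 2), where the 6.99% of all genes tested leaves few or no calls for lists this short. Between the intact clones the other mitotic genes followed the mitotic genes above: 66 of 86 were lower in clone 2 at an unadjusted p under 0.05 and 0 higher, with a median log2 ratio of -0.36. Of the other S-phase genes 31 of 80 were lower and 3 higher, with a median of -0.13, against 9.19% lower and 7.93% higher of all genes tested. The G1 genes gave 1 lower and 0 higher, with a median of 0.02, and the brakes 3 lower and 2 higher of 23 (13% and 8.7%), near the shares of all genes. Among the 8 lines, 7 of 86 other mitotic genes, 5 of 80 other S-phase genes, 3 of 23 brakes and 0 of 11 G1 genes passed at an adjusted p under 0.05, against 3.6% of all genes tested. These counts were not taken without KO 1 and KO 2, where 1.35% of all genes tested passed. How far the calls of these lists rest on those 2 clones was not tested.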

How the data were processed

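RNA was taken from 10 samples of mpkCCD cells, and cDNA made with SMART-Seq v4 and Nextera XT, which do not mark strand, was sequenced from both ends. The authors used STAR and RSEM (per the submitters' processing notes) with a mouse Ensembl reference and deposited TPM per gene, 1 column per sample, and 0 value columns were left unused. TPM sum to the same total in every sample, so sequencing depth is unknown and no counting interval is given. The authors tested expected counts with edgeR. Expected counts were not used here, so TPM were tested on a log scale.

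The 42 members, their roles and the other gene lists were chosen with earlier results of these data known. The 20000 genes of highest mean TPM (at least 0.049) were transformed as log2(TPM + 1), which understates changes of low genes, and fitted with limma 3.58.1 in R 4.3.3 (lmFit, eBayes with an intensity trend), with Benjamini-Hochberg adjustment over all of them and calls at an adjusted p under 0.05. The KO and intact groups were compared (5 against 5 samples, 8 residual degrees of freedom). The 8 cell lines were compared by a moderated F test with 2 residual degrees of freedom from the 2 pairs of intact samples, which assumes that lines with 1 sample vary like these pairs, and intact clone 2 was compared with clone 1 in the same fit. For single members, all 252 arrangements of samples gave a two-sided exact permutation p. At most 0.337% of genes at 1 TPM or more had identical values in the paired samples of a clone. They are thus not copies of one column, but this does not show that they are separate cultures, and each was counted as a sample as labelled. Other steps ran in Python 3.11.15 (numpy 2.4.6, pandas 2.3.3, matplotlib 3.10.9, scipy 1.17.1), and the fits were tested on simulated data.

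Values in every sample are given for the most abundant member of each of 10 roles and for the members of smallest p, 5 for KO against intact, 5 among lines and 3 between intact clones. From each other list up to 3 genes in each direction of smallest unadjusted p under 0.05 are named. Members outside this rule were named after their values were seen. The lists were other mitotic genes, other S-phase genes, G1 genes, cell-cycle brakes and replication-dependent histones.

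Alternatives were pseudocounts of 0.1 and 0.5, quantile normalization, rescaling by median ratios, all genes above 0, only genes with a mean of 1 TPM or more, moderation that was robust or had no trend, lines averaged to 1 value or entered as random effects (statmod 1.5.0, consensus correlation 0.603), a spread pooled with KO clones, and leaving out each sample. Leaving out KO 1 and KO 2 together was added after seeing the data. Read sharing was judged by how many windows of 50 bases in GENCODE M21 transcripts (GRCm38) occur in no other gene. Coordinates are those of RefSeq promoters on GRCm38.p6, and none comes from the authors' table. The guide of each KO clone is given by the study but not by the labels, so guides were not used as groups.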

Additional observations from a re-analysis of the deposited data

Results flagged for a closer look

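Within the intact and within the KO group, the highest or lowest sample was compared with its nearest neighbour. In 16 of the 84 groups examined (42 genes in 2 groups of 5) the gap was over 0.71 of the whole range of the group, Dixon's critical value for 5 samples. Chance alone flags about 1 in 20 groups of independent samples, but the intact group holds 2 pairs of 1 clone each, and the genes share their samples. Over all genes tested the gap was past this limit in 11.8% of groups, and in 9.01% for genes at least as abundant as the lowest of the 42.

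In 13 cases the sample was KO 2, at the top of the KO group, which is 31% of the 42 genes, against 5.68% of all genes tested and 7.06% of those as abundant. The mitotic genes were Ccnb2 at 202.69 TPM, Aurkb at 155.08 TPM, Bub1b at 116.33 TPM, Ttk at 22.56 TPM, Cenpa at 274.25 TPM, Cenpf at 64.73 TPM, Kif23 at 219.62 TPM, Kif20a at 96.98 TPM, Tpx2 at 90.89 TPM and Mki67 at 35.22 TPM. The S-phase genes were Mcm7 at 599.77 TPM, Rrm1 at 309.99 TPM and Uhrf1 at 152.49 TPM. In 2 cases the sample was KO 1, at the bottom of the KO group, with Mcm2 at 333.55 TPM and Cdt1 at 128.53 TPM. In 1 case it was the parental line, at the bottom of the intact group, with Gins2 at 156.85 TPM.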

How the results depend on the processing

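No paired analysis was possible because the labels pair no intact sample with a KO clone. Between KO and intact cells, 0 of the 42 genes passed at an adjusted p under 0.05 in any of the alternatives run. The count over all genes was 2 with a pseudocount of 0.1 and 1 to 2 when a sample was left out, and the count at an unadjusted p under 0.05 was 762 when each cell line gave 1 value and 749 when lines entered as random effects. Leaving out 1 sample gave 0 to 1 of the 42 genes and 1095 to 1637 of all genes at an unadjusted p under 0.05. It gave median log2 ratios of -0.05 to 0.10 for the mitotic and -0.042 to 0.076 for the S-phase genes, and -0.014 to 0.18 for Mcm7. The negative values came without KO 2 and, for the mitotic genes, also without intact 2_2 (-0.017). E2f1 was at -0.0081 without KO 1 and KO 2.

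Among the 8 lines, 10 of the 42 genes passed with all genes above 0 (3448 genes in all, 13.2%), 11 with a mean TPM of at least 1 (998 genes, 7.65%), 11 with robust moderation (1200 genes) and 0 without a trend (452 genes). Without KO 1 and KO 2, 0 passed (271 genes), and 21 of the 42 and 3657 of all genes had an unadjusted p under 0.05. Leaving out 1 sample gave 0 to 5 of the 42 genes and 0 to 890 of all genes at an adjusted p under 0.05. At an unadjusted p under 0.05 it gave 19 to 36 of the 42 and 4487 to 5939 of all genes. The lowest counts, of 0, came without KO 2 (384 of all genes) and without any of the 4 paired samples (0 of all genes).

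Between the intact clones, the direction of Cdc20, Birc5 and Mki67 was the same in all fits run. At an adjusted p under 0.05, 7 of the 42 genes passed with a mean TPM of at least 1 (243 genes in all) and 4 with robust moderation (191 genes). The count over all genes was 2 with all genes above 0, 11 without a trend, 1 with a pseudocount of 0.1, 1 with 0.5, 28 with a spread pooled with KO clones and 0 without KO 1 and KO 2. That pooled spread gave 17 of the 42 and 1314 of all genes at an unadjusted p under 0.05. Leaving out 1 sample gave 0 to 5 genes, and median log2 ratios of -0.44 to -0.36 for the mitotic and -0.12 to -0.074 for the S-phase genes. Rescaling by median ratios moved the means of KO 2 above the median sample to 0.35 in the mitotic and 0.25 in the S-phase genes. Causes of these shifts were not tested.

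TPM keep no record of depth, so counting error cannot be separated from the spread between samples. Each KO clone is 1 sample, so the differences of KO 1 and KO 2 from other clones cannot be told apart from differences between libraries, and calls among lines and between intact clones rest on 2 residual degrees of freedom.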

Other observations

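Replication-dependent histone genes, whose transcripts are made in S phase, were compared as a separate list. Most of these transcripts lack a poly(A) tail, and SMART-Seq v4 primes cDNA with oligo-dT, so their levels here (mean log2(TPM + 1) of 1.19 to 1.45 over samples) need not follow their true abundance. Of 52 tested, 6 had an unadjusted p under 0.05 between KO and intact cells, all lower in KO, against 2.46% of all genes tested, and 0 had an adjusted p under 0.05. The median log2(KO/intact) of the list was -0.09, with 40 of 52 below 0, against 8549 of the 20000 genes tested. Read sharing was not judged for these histone genes, so it is unknown how far the 52 are separate measurements. No comparison with genes of a like level was made. KO 1 was the lowest sample in the mean of the list, and without it the median was -0.05, with 34 of 52 below 0. Without KO 2 it was -0.11, and 10 of 52 had an unadjusted p under 0.05, 9 of them lower in KO, against 2.84% of all genes called lower in that fit. Without KO 1 and KO 2 the median was -0.06 and 5 of 52 had an unadjusted p under 0.05, all lower in KO, against 3.1% of all genes. The most different was H2ac10, at 0.5 to 1.0 TPM in intact samples and listed at 0 to 0.3 TPM in KO samples, without overlap (log2(KO/intact) -0.56, limma adjusted p = 0.385). H2bc15, at 0.2 to 0.3 TPM in intact samples and listed at 0 in 4 of 5 KO samples, differed by -0.28 on the log2 scale (limma adjusted p = 0.565), and H2bc6, at 1.6 to 2.2 TPM in intact and 1.0 to 1.8 TPM in KO samples, by -0.33 (limma adjusted p = 0.607). Between the intact clones 8 of the 52 were lower and 3 higher in clone 2 at an unadjusted p under 0.05, against 9.19% and 7.93% of all genes tested, with a median of -0.09, and among the 8 lines 0 of 52 passed at an adjusted p under 0.05.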
